A study of Mus musculus with 4 samples.

Results

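Voltage-gated sodium and calcium channels are encoded by gene families that were read here as 32 of the 31053 gene rows, matched by symbol. The families were chosen with earlier results of these data known. They hold 10 pore-forming sodium channel genes (Scn1a to Scn11a) and 4 sodium channel beta subunit genes (among them Scn2b to Scn4b). The others are 10 pore-forming calcium channel genes (Cacna1a to Cacna1s), 4 alpha2delta genes (Cacna2d1 to Cacna2d4) and 4 calcium channel beta genes (Cacnb1 to Cacnb4). All 32 genes were counted in single nuclei of whole brains from female C57/BL6 mice aged 2 months. The mice carried either 2 intact copies of Csf1r (WT) or 1 (Csf1r+/-, a germline loss carried by every cell). The study describes Csf1r as expressed mainly in microglia. Neither group received a treatment. The study used 3 mice per genotype, and 2 libraries per genotype were analysed here. The third library of each was not used here. Brains were perfused, nuclei were released without detergent and myelin debris was removed with beads. Each library is from its own mouse per the study's design, so p-values measure the spread between 2 mice per genotype.

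Sodium channels open when a membrane depolarizes and carry the rising phase of the action potential. Their pore is a single large alpha subunit, to which smaller beta subunits attach. Calcium channels convert the same depolarization into calcium entry, which triggers transmitter release at terminals and gene regulation and firing patterns in the cell body. Each high-voltage calcium channel joins a pore with an intracellular beta subunit and an extracellular alpha2delta subunit, whereas the low-voltage or T-type pores can work alone.

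After filtering, 52132 of 53990 nuclei remained, between 9589 and 16114 per library, with a median of 4636 to 7454 unique molecular identifiers (UMIs) per nucleus. Both Csf1r+/- libraries were deeper per nucleus than both WT libraries. Pairs of libraries shared 33 to 68 barcodes. The targeted gene was counted first: in microglia, the WT libraries had Csf1r levels of 818 and 866 CPM (a gene's UMIs per 1000000 UMIs of the class in that library) and the Csf1r+/- libraries 593 and 577 CPM, on 117 to 208 UMIs. Clusters were named from marker genes, with the channel genes kept out of the clustering. Excitatory neurons held 28511 nuclei, inhibitory neurons 7741, mixed or other neurons 8041, oligodendrocytes 2370, microglia 672 and endothelial cells 565. The mixed or other neurons included clusters of 3176 nuclei each, led by Htr2c and Arhgap24 and by Otx2os1 and Zfhx3. Their GABA markers (Gad1, Gad2 and Slc32a1) stood at 2.53 and 3.21 times the level over all nuclei. Their glutamate transporters stood at 0.48 and 0.53 times that level. Values of the inhibitory class below do not cover these GABA-type nuclei. All 8 inhibitory, 11 oligodendrocyte, 12 microglia and 11 endothelial markers were more than 2 times as high in their own class as over all nuclei, and the endothelial class also held 8 of 10 mural markers at that level. The 10 excitatory markers summed to 3597 to 3812 CPM in excitatory and 1081 to 1252 CPM in inhibitory neurons. No cluster was named as astrocytes, and 8 of 12 astrocyte markers in oligodendrocytes, 6 in microglia and 7 in endothelial cells were also more than 2 times as high as over all nuclei. Of the neurons, 16 subtypes were named.

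Levels below are compared for 1 gene across classes, never between genes, because a gene's UMIs depend on its length and its primed sites. They are descriptions with no test, since the classes were made from the same nuclei. A range is that of the 4 libraries. Over all nuclei, Cacna2d3 had 367234 UMIs and Cacna2d1 367166, whereas 4 members had fewer than 100. These were Scn4a, the skeletal muscle pore, with 2 UMIs, the sensory neuron pores Scn10a and Scn11a with 30 and 55, and Cacna1s, the skeletal muscle calcium pore, with 60. No level of these 4 could be read at this depth.

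Among the 4 pores that carry most sodium current in the brain, Scn2a and Scn8a were the most even and Scn1a and Scn3a the most uneven. Scn2a, found in the initial segment of excitatory axons, ranged only 1.75-fold over the 16 subtypes, from a mean of 282 CPM in Pbx3 olfactory-type GABA neurons to 494 CPM in layer 6 corticothalamic (CT) neurons, and 10 other subtypes overlapped the highest. Scn8a, the pore of mature nodes and initial segments, ranged 2.60-fold, from 154 CPM in Pbx3 olfactory-type GABA neurons to 399.7 CPM in CA1. Scn1a, the pore on which fast-spiking interneurons rely, was highest in Pvalb interneurons. The WT libraries had 609.7 and 591 CPM there, and the Csf1r+/- libraries 658 and 627 CPM. No other named subtype reached that range, the next being layer 5 extratelencephalic (ET) neurons at 384 to 526 CPM. The layer 6 CT and 6b group was lowest, with a mean of 165 CPM. Scn3a, a pore known from the developing brain, ran the other way. Among named subtypes, its lowest level, 56.5 CPM, was in Pvalb interneurons and its highest, 276 CPM, in Pbx3 olfactory-type GABA neurons.

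Other sodium pores were more uneven. Scn9a, best known as the pain-related pore of sensory neurons, was found in 68.6% of Pvalb interneuron nuclei at 195, 240.3, 281 and 315 CPM in WT replicates 1 and 2 and Csf1r+/- replicates 1 and 2, and in 67.8% of thalamic relay nuclei at 141 to 184 CPM. Those 2 ranges did not overlap, and the level in layer 6 CT and 6b neurons was 30.9-fold below that of Pvalb interneurons. Of those layer 6 nuclei 6.27% had an Scn9a UMI, although their median UMI count was above that of Pvalb interneurons in each library. The mixed or other neurons, outside the named subtypes, held Scn9a at 207 to 277 CPM, within the range of Pvalb interneurons. An unnamed inhibitory cluster led by Fign and Six3, given under other observations, reached above that range. Scn7a, a member that is gated by sodium concentration rather than voltage, was highest among named subtypes in the joint Lamp5/Ndnf and Vip interneuron group at 13.2 to 18.6 CPM, and no other named subtype reached that range. An unnamed excitatory cluster led by Hgf and Barx2 held more, 58.2 to 91.2 CPM, and clustering at resolution 1 gave Scn7a another highest subtype.

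Scn9a and Scn7a are neighbours. In mouse build GRCm38 the genes Scn3a (chr2:65457118-65567627), Scn2a (chr2:65620771-65767447), Scn1a (chr2:66270778-66440840), Scn9a (chr2:66480080-66634962) and Scn7a (chr2:66673425-66784914) follow each other on chromosome 2, all on the minus strand except Scn2a. No member overlapped another counted gene on its own strand. The 250 bases before the RefSeq start (GRCm38.p6) of Scn9a, chr2:66634963-66635212, and of Scn7a, chr2:66784911-66785160, are shown 5′ to 3′ on the minus strand because these adjacent genes had uneven levels. They were chosen after the levels were seen, as the members with over 1000 UMIs, a highest subtype at least 5 times the median subtype, 1 RefSeq promoter and at most 30 of these bases inside the annotated gene. Capitals mark a GC box, CCGCCC on either strand.
Scn9a: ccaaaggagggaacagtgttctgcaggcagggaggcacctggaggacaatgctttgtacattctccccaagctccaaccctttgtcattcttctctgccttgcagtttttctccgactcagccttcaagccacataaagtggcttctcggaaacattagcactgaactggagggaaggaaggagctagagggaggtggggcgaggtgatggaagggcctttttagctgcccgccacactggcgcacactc
Scn7a: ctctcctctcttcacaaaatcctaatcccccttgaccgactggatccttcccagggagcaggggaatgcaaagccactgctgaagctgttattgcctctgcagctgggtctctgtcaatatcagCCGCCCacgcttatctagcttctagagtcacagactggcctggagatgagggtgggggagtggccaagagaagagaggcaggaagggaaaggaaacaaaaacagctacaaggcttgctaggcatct
The Scn7a window held 1 GC box, which 32.7% of 32851 mouse promoters of that length held, and the Scn9a window held none. Neither held TATAAA on either strand, which 12.4% of those promoters did.

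Of the beta subunits of sodium channels, Scn4b and Scn3b stood out in particular subtypes. Scn4b, which promotes resurgent current, was highest in striatal projection neurons at 20.6 and 47.5 CPM (WT) and 26.4 and 26.1 CPM (Csf1r+/-). Layer 5 ET neurons followed at 8.92 to 13.4 CPM. Scn3b was highest in hippocampal neurons, with means of 76.2 CPM in CA1 and 70.1 CPM in the CA3 and dentate granule group, and lowest in Pvalb interneurons with 13.5 CPM. Scn2b, which links channels to cell adhesion, had 11 other subtypes within the range of the highest, so no subtype stood apart.

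**Figure D1:**
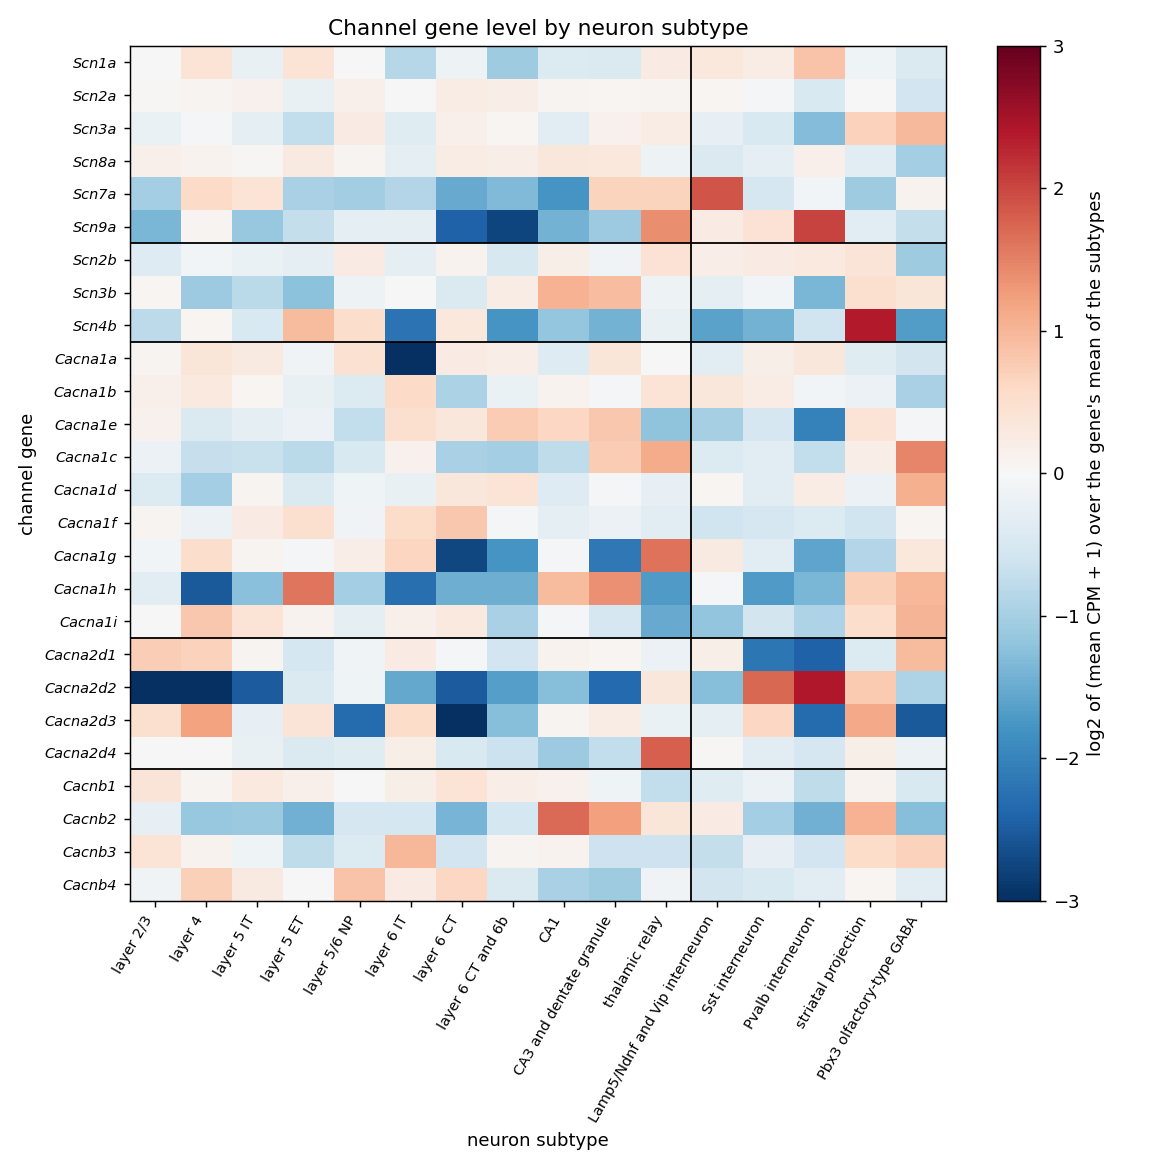
Mean level of 26 channel genes (rows, by role from sodium pores at the top to calcium beta subunits at the bottom) in 16 neuron subtypes (columns, excitatory left of the vertical line). Colour is the log2 of the mean CPM plus 1 of 4 libraries over the gene's own mean of the subtypes, so that colours compare subtypes within a gene, and values beyond 3 in either direction take the end colour. Among the 16 subtypes drawn, Cacna2d2 and Scn9a are highest in Pvalb interneurons, Scn4b in striatal projection neurons and Cacna1g in thalamic relay neurons.

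Calcium pores of the presynaptic P/Q and N types were broadly counted. Cacna1a, the P/Q-type pore, stood at 88.1, 109.5, 71.8 and 37.6 CPM over the 4 libraries in the group named layer 6 intratelencephalic (IT) neurons. The other subtypes had a mean of 442 CPM or more. The layer 6 IT group had 44 to 184 nuclei per library and was named from 4 enriched markers of its list. Its leading genes were Oprk1, Gnb4, Nr4a2, Col24a1 and Ntng2, and whether it holds layer 6 cells alone was not tested. Cacna1b, the N-type pore, was highest in that same group at 274 to 367 CPM, and 4 other subtypes overlapped it. Cacna1e, the R-type pore, was highest in the CA3 and dentate granule group at 1019 to 1117 CPM and lowest in Pvalb interneurons at 114 to 195 CPM, 7.24-fold less by the means.

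The L-type pores couple activity to transcription. Cacna1c was highest in Pbx3 olfactory-type GABA neurons at 2556 and 2277 CPM (WT) and 2368 and 2680 CPM (Csf1r+/-), and thalamic relay neurons followed at 1818 to 2069 CPM without overlap. Cacna1d was highest in the same GABA neurons, at 1058 to 1245 CPM, and lowest in layer 4 with a mean of 268 CPM. Cacna1f, the retinal L-type pore, stayed below 8 CPM in every library of every subtype.

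The 3 T-type pores, which support burst firing, had different peaks. Cacna1g was counted at 138 and 112 CPM (WT) and 116 and 127 CPM (Csf1r+/-) in thalamic relay neurons, above every library of every other named subtype, and had its lowest mean, 5.04 CPM, in layer 6 CT neurons, the cortical cells that project to the thalamus. Cacna1i was at its lowest in thalamic relay neurons, with a mean of 14.7 CPM, and at its highest in Pbx3 olfactory-type GABA neurons, at 78.0 to 98.0 CPM. Cacna1h peaked in layer 5 ET neurons at 35.3 to 45.5 CPM, with the CA3 and dentate granule group overlapping it, and stood at 1.40 CPM in layer 4.

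Alpha2delta subunits bring the pore to the membrane, and Cacna2d1 and Cacna2d2 encode the targets of gabapentinoid drugs. Cacna2d1 was highest in Pbx3 olfactory-type GABA neurons at 1659 to 1809 CPM, just above layer 2/3 neurons at 1226 to 1649 CPM, and lowest in Pvalb interneurons at 117 to 206 CPM. Among named subtypes, Cacna2d2 was highest in Pvalb interneurons, at 161 and 167 CPM (WT) and 175 and 192 CPM (Csf1r+/-). Of the named subtypes, Sst interneurons followed at 105 to 116.5 CPM without overlap, and layers 2/3 and 4 had means of 3.18 and 2.70 CPM. The mixed or other neurons, outside the named subtypes, held 114 to 131 CPM as a whole class. When clustered with no centring per library, 3340 of such neurons formed a cluster led by Otx2os1 and Zfhx3. Cacna2d2 was among its leading genes. Cacna2d3 was highest in layer 4 (2016 to 2530 CPM) and striatal projection neurons (1976 to 2418 CPM), which overlapped. Its lowest level, 22.8 to 62.0 CPM, was in layer 6 CT neurons, 53.5-fold below layer 4. Cacna2d4 was scarce in neurons and highest in thalamic relay neurons at 7.64 to 10.6 CPM.

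Of the beta subunits, which bind the pore from inside and set its trafficking, Cacnb2 was highest in CA1 at 2384 and 2462 CPM (WT) and 1636 and 2333 CPM (Csf1r+/-) and lowest in layer 5 ET neurons with a mean of 248 CPM. Among named subtypes, Cacnb4 had its lowest levels in the hippocampal groups, with means of 424 and 395 CPM. Its highest was in layer 5/6 near-projecting (NP) neurons at 1415 to 1550 CPM. Cacnb1 and Cacnb3 were low and varied 2.39-fold and 3.71-fold. Removing nuclei with high doublet scores left the highest subtype the same for 29 of 32 members, and clustering at resolution 1 for 24. The 32 include the members too scarce to read. At resolution 1 it changed for Cacna1e, Cacnb2, Scn3b, Scn8a, Scn7a, Scn2b, Cacnb1 and Cacna1s. Leaving out a library kept it for 28 to 31 members, and that of Scn8a changed without WT replicate 1 and without Csf1r+/- replicate 2.

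Across the 496 pairs of members, pairs whose mean levels ranked the 16 subtypes alike included Cacnb2 with Scn3b (Spearman's rho 0.732) and Cacna1e with Scn3b (0.70). The most opposed were Cacna2d3 with Cacna1d (-0.785), Cacna1e with Scn1a (-0.779) and Cacna1e with Scn9a (-0.768). These are descriptions over subtypes that share libraries.

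Summed over all their clusters, excitatory and inhibitory neurons had non-overlapping ranges for 17 of the 28 members with at least 30 UMIs in each. Of all 15451 genes that met this minimum of 30 UMIs, 37.6% did not overlap, and they were not matched to the members by UMI count. Inhibitory neurons were higher for 8 members, against 25.0% of those genes. Among them were Cacna2d2 (9.50-fold, 8.22 to 11.6 over libraries) and Scn9a (2.56-fold, 2.41 to 2.77), and the ratios of Cacna1h, Cacna1d, Cacnb2, Scn1a and Cacna1c lay between 1.23-fold and 1.41-fold. Excitatory neurons were higher for 9, against 12.6% of the genes, led by Cacna2d1, whose inhibitory level was 0.550 of the excitatory one (0.447 to 0.626), and followed by Cacna1e (0.680), Cacnb4 (0.682) and Cacnb1 (0.697). The groups differ in their mix of subtypes, so these ratios also follow the subtypes that a class holds. Without the limits on transporter level that were added to the class names after the clusters were seen, 10 of the 28 ratios moved by more than the spread of the libraries, among them Scn9a (log2 ratio 1.88 against 1.36).

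**Figure D2:**
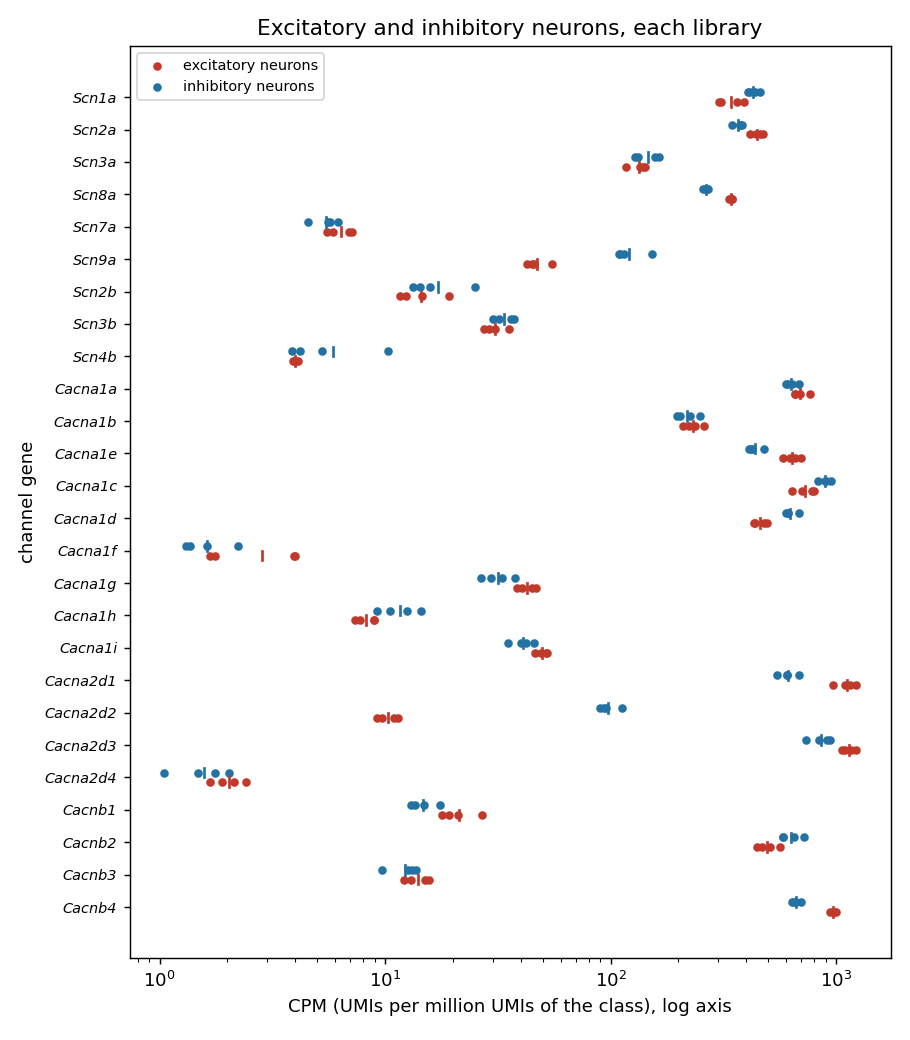
Level of 26 channel genes in excitatory (red) and inhibitory (blue) neurons. Each point is 1 of 4 libraries in CPM on a log axis and each bar the mean, with Cacna2d2 and Scn9a well separated and higher in inhibitory neurons.

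Glial and vascular nuclei carried channel UMIs as well, together with UMIs of genes that mark neurons. The 12 pan-neuronal markers had a median level in oligodendrocytes of 16.8% to 35.3% of that in neurons, by library. In microglia the median was 17.8% to 34.2% and in endothelial cells 42.6% to 69.2%. A member was read as higher only where it exceeded all 12 markers in every library. In oligodendrocytes this held for 1 of 32 members, Cacna2d4, counted at 20.3 and 26.0 CPM (WT) and 22.2 and 34.8 CPM (Csf1r+/-) on 133 UMIs. Those levels were 1168% to 1480% of the neuronal ones. In microglia it held for 2 members. Of these, Cacnb2 had 704 and 816 CPM (WT) and 764 and 839 CPM (Csf1r+/-), or 120% to 166% of neurons, and was found in 55.5% of microglial nuclei, against 17.2% of oligodendrocytes, which had a median of 1700 to 2054 UMIs by library to the 1119 to 1453 of microglia. No member met the criterion in endothelial cells, in the oligodendrocyte precursor cluster, which also held astrocyte markers, or in the mural cluster, which also held endothelial markers. The highest marker stood at 112% to 206% of neurons in the precursor cluster and 69.4% to 111% in the mural cluster. A miss there therefore does not place a member at the level of the markers. The same holds in oligodendrocytes, microglia and endothelial cells, where the highest marker stood at 47% to 139%, 46.2% to 117% and 86.4% to 98.7%. Oligodendrocyte Cacnb4 was at 42.7% to 56.0%, against marker medians of 16.8% to 35.3%, and exceeded all 12 in 1 library. Mural Cacna1c was at 72.0% to 119%, against marker medians of 34.2% to 49.9%, and exceeded all 12 in 2 libraries. Microglial Cacna1d was at 49.2% to 75.1%.

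**Figure D3:**
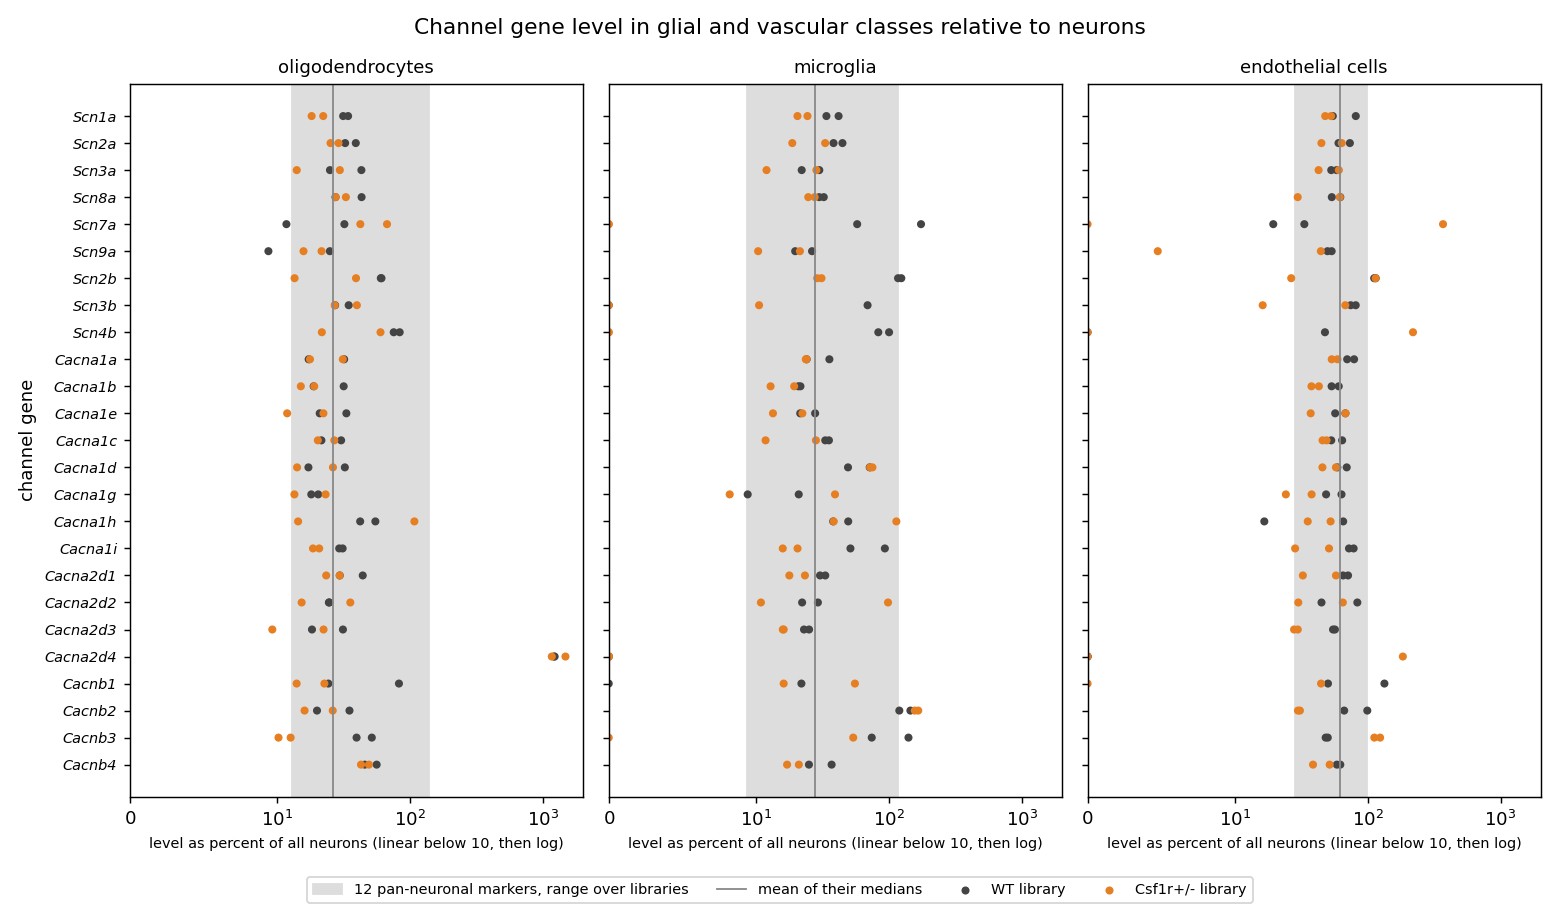
Level of channel genes with at least 1000 UMIs, and of Cacna2d4, in oligodendrocytes, microglia and endothelial cells as percent of the level in all neurons of the same library (dots, WT dark and Csf1r+/- orange), on an axis that is linear below 10% and logarithmic above. The grey band spans 12 pan-neuronal markers over the libraries and the line is the mean of their medians. Cacna2d4 in oligodendrocytes lies at 1168% to 1480%, beyond the band.

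The question of the genotype comparison was whether loss of 1 Csf1r copy came with altered channel transcripts in each class. In excitatory neurons 21 members passed the filter (10 or more counts, and a UMI in 10% or more of the WT or of the Csf1r+/- nuclei), and 0 passed the study's threshold of an unadjusted p under 0.01 in edgeR's quasi-likelihood test, against 0.247% of the 7697 genes tested. At an unadjusted p under 0.05 the count was also 0, against 1.84% of genes. EdgeR's likelihood-ratio test, which is the test the study used, and DESeq2 called 0 at the study's threshold. The 2 smallest p-values belonged to Cacna1c and Cacnb2. Cacna1c was at 799 and 782 CPM (WT) and 639 and 706 CPM (Csf1r+/-), a log2 fold change of -0.20 ± 0.11 (SE) in edgeR with an adjusted p = 1.0. The groups did not overlap, but the difference did not pass the test. Here and in the classes below, groups of 2 and 2 libraries without overlap have p = 0.333 in a two-sided exact permutation test. Cacnb2 had a log2 fold change of -0.19 ± 0.12. The median over the 21 members was 0.03 and that over all genes tested -0.0010.

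Of 19 members tested in inhibitory neurons, 0 passed the threshold, against 0.152% of 6583 genes. The count was 1 at an unadjusted p under 0.05, against 2.05% of genes, and 0 by the likelihood-ratio test and by DESeq2 at the study's threshold. Scn3a was nearest. Its levels were 157 and 164.5 CPM (WT) and 133 and 129 CPM (Csf1r+/-), without overlap, with a log2 fold change of -0.30 ± 0.08 and an edgeR adjusted p = 1.0. Cacnb2 followed at -0.24 ± 0.10. The median log2 fold change of the members was -0.02, against -0.0032 for all genes. Without WT replicate 1, 1 member passed.

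Of 329 tests of members in the 16 subtypes, 5 (1.52%) passed the threshold, against 0.596% of all tests in those subtypes, and none had an adjusted p under 0.05. No member passed in 2 subtypes. The 5 are named after their values were seen. Pvalb interneurons held 3 of them, where 1.10% of all genes passed. There, Cacna1e was at 158 and 195 CPM (WT) against 114 and 121 CPM (Csf1r+/-) (-0.60 ± 0.13, edgeR adjusted p = 0.52), Cacna2d1 at 206 and 188 CPM against 117 and 144 CPM (-0.61 ± 0.14, edgeR adjusted p = 0.57), and Scn9a at 195 and 240.3 CPM against 281 and 315 CPM (0.45 ± 0.13, edgeR adjusted p = 0.80). Of the 16 subtypes, Pvalb interneurons had the lowest means of Cacna1e (147 CPM) and Cacna2d1 (164 CPM), against 639 and 1112 CPM in excitatory neurons. High doublet scores were held by 13.6% of Pvalb interneuron nuclei. The part of excitatory UMIs in the Cacna1e and Cacna2d1 calls was not tested. Cacnb2 was lower in layer 5 ET neurons (-0.51 ± 0.15), where 0.818% of genes passed, and Cacna2d3 in the layer 6 CT and 6b group (-0.50 ± 0.15), where 0.425% did. Layer 5 ET neurons had the lowest mean of Cacnb2 of the 16 subtypes, 248 CPM, against 496 CPM in excitatory neurons. High doublet scores were held by 13.3% of their nuclei and by 4.6% of the layer 6 CT and 6b group. The part of other neurons' UMIs in the Cacnb2 and Cacna2d3 calls was not tested. The likelihood-ratio test called 9 such tests and DESeq2 4. The count was 9 without WT replicate 1, 8 without WT replicate 2 and 3 without Csf1r+/- replicate 1.

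Oligodendrocytes had 11 members tested and 0 past the threshold, against 0.0282% of 3547 genes. The count at an unadjusted p under 0.05 was 1, against 2.59% of genes, and the likelihood-ratio test and DESeq2 called 0. All 11 had negative fold changes, with a median of -0.45 against -0.0051 for all genes. Scn1a, the smallest p, was at 136 and 109 CPM (WT) and 62.2 and 90.8 CPM (Csf1r+/-) (-0.71 ± 0.25), and Scn2a had a fold change of -0.49 ± 0.22. The 6 pan-neuronal markers that could be tested there also had negative fold changes, with a median of -0.52, and 0 of them passed. Removing nuclei with high doublet scores, which made up 10.9% of oligodendrocytes in WT replicate 1 and 1.56% to 7.78% in the other libraries, changed the count to 5 and the median to -0.87. The 12 astrocyte markers summed to 479 and 755 CPM (WT) and 342 and 396 CPM (Csf1r+/-). Free RNA was estimated as the profile of all nuclei of a library scaled by the median of the pan-neuronal markers, not from empty droplets. It cannot be told apart from UMIs of doublets or mixed clusters. The estimate was 17.1% to 35.7% of oligodendrocyte UMIs. Subtracting this estimate changed the median to 0.05 and left 4 to 7 of the 11 members at 0 UMIs, by library. Without WT replicate 1 the median was -0.066, without Csf1r+/- replicate 1 it was -0.15, and without WT replicate 2 it was -0.88, with 1 member past the threshold. The part of these neuronal and astrocyte UMIs in the result was not tested.

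In microglia, 1 of 11 members passed, against 7.19% of 2989 genes (6.99% lower). After adjustment it was 0, against 3.18% of genes, and at an unadjusted p under 0.05 it was 7, against 14.4%. Cacna1c was at 281 and 262 CPM (WT) and 79.8 and 202 CPM (Csf1r+/-), lower by 1.10 ± 0.32 on the log2 scale in edgeR but with an adjusted p = 0.079. Of the 11, 10 had negative fold changes, with a median of -0.63 against 0.0046 for all genes. Cacnb2, which exceeded the neuronal markers there, had a log2 fold change of -0.03, and its genotypes overlapped. Pan-neuronal markers moved with the members. All 6 tested had negative fold changes, with a median of -0.94, and 4 of them passed the threshold. The 12 together summed to 4536 and 3902 CPM (WT) and 1915 and 2808 CPM (Csf1r+/-), and the 12 astrocyte markers to 590 and 1095 CPM and to 555 and 375 CPM. Their part in the result was not tested. Subtracting the free RNA, estimated from those markers, left 5 or 6 of the 11 members at 0 UMIs by library. Cacna1c kept 3 and 0 UMIs (WT) and 0 and 4 (Csf1r+/-), too few to be fitted. The median was then -0.01 over the members that kept 10 or more counts, so it is not over the same 11. When clustered at resolution 1, where microglia merged with nuclei of high doublet scores, the median was -0.06, with Cacna1c still past the threshold at -0.48. Cacna1c did not pass by DESeq2 (-1.05), with no centring per library (-0.23) or without Csf1r+/- replicate 1 (-0.51). The count was 0 without Csf1r+/- replicate 1, 3 without WT replicate 2 and 5 without Csf1r+/- replicate 2.

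Genes for proteins that act with the channels were read from a list of 32. In microglia 17 of them were tested and 12 passed, all lower, against 6.99% of genes lower and beside the same pan-neuronal values: Rims1 (-1.26 ± 0.24), Fam155a (-1.11 ± 0.27) and Fgf14 (-1.07 ± 0.28) had edgeR adjusted p-values of 0.018, 0.041 and 0.049, and the others, among them Rims2, Ryr2, Ryr3, Unc79, Unc80, Fgf12, Nedd4l and Ank3, did not pass after adjustment. Rims1 and Rims2 organize release sites, Fgf12 and Fgf14 bind sodium pores, Ank3 anchors them and Ryr2 and Ryr3 release stored calcium. The fold changes of the 11 genes named here lay between -0.20 and 0.13 in the clustering at resolution 1, and those of Rims1, Rims2, Fgf12 and Unc80 were positive. In excitatory neurons, inhibitory neurons and oligodendrocytes edgeR called 0 of 24, 27 and 16 tested, against 0.247%, 0.152% and 0.0282% of genes, with 0, 1 and 3 at an unadjusted p under 0.05, against 1.84%, 2.05% and 2.59%.

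Of the 5 classes, endothelial cells alone held a member with an adjusted p under 0.05, which 0.63% of genes there had. Cacnb2 was at 391 and 557 CPM (WT) and 150.3 and 150.2 CPM (Csf1r+/-), lower by 1.73 ± 0.30 on the log2 scale (edgeR adjusted p = 0.0044). The difference held at an unadjusted p under 0.01 in all 16 alternatives in which this fold change was fitted, with values from -2.94 to -1.08, and 4 of these leave out a library, where the spread of the lone sample is taken from the other genotype. Free RNA, estimated from the pan-neuronal markers at 43.2% to 72.3% of endothelial UMIs, was subtracted separately. This left 8 to 12 of the 13 members at 0 UMIs by library. The median was -0.50 over the 13 members before and -3.86 over the fewer members that kept 10 or more counts. For Cacnb2 it left 0 of 285 and 71 of 234 UMIs (WT) and 0 of 43 and 0 of 33 (Csf1r+/-), so that WT replicate 2 alone kept UMIs above its estimate. Cacna2d3, at 525 and 574 CPM (WT) and 269 and 323 CPM (Csf1r+/-), was lower by 0.98 ± 0.27 and did not pass after adjustment (edgeR adjusted p = 0.13). The same subtraction left Cacna2d3 at 0 UMIs in the 4 libraries. These were 2 of 13 members tested, against 4.09% of 5401 genes (2.72% lower), with 4 at an unadjusted p under 0.05, against 14.9%. All 13 had negative fold changes with a median of -0.50, against 0.0058 for all genes. Other cell types' markers moved with them: the 8 inhibitory markers summed to 1704 and 2275 CPM (WT) and 206 and 387 CPM (Csf1r+/-), the 12 astrocyte markers to 666 and 843 CPM and to 563 and 555 CPM, the 10 pan-neuronal markers tested had fold changes with a median of -0.40 on the log2 scale, 1 of them past the threshold, and 21.1% and 33.0% of WT against 11.2% and 17.4% of Csf1r+/- endothelial nuclei had high doublet scores. The part of these in the result was not tested. Without the nuclei of high doublet scores, Cacnb2 stayed past the threshold and Cacna2d3 did not. Cacna2d3 also missed it without WT replicate 1 or WT replicate 2, which left 1 member past it, and without Csf1r+/- replicate 1 there were 5. Of 22 partners tested, 2 passed, Ryr3 (-1.03 ± 0.28) and Nalcn (-0.88 ± 0.27), both lower, against 2.72% of genes lower, and neither passed after adjustment.

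**Figure D4:**
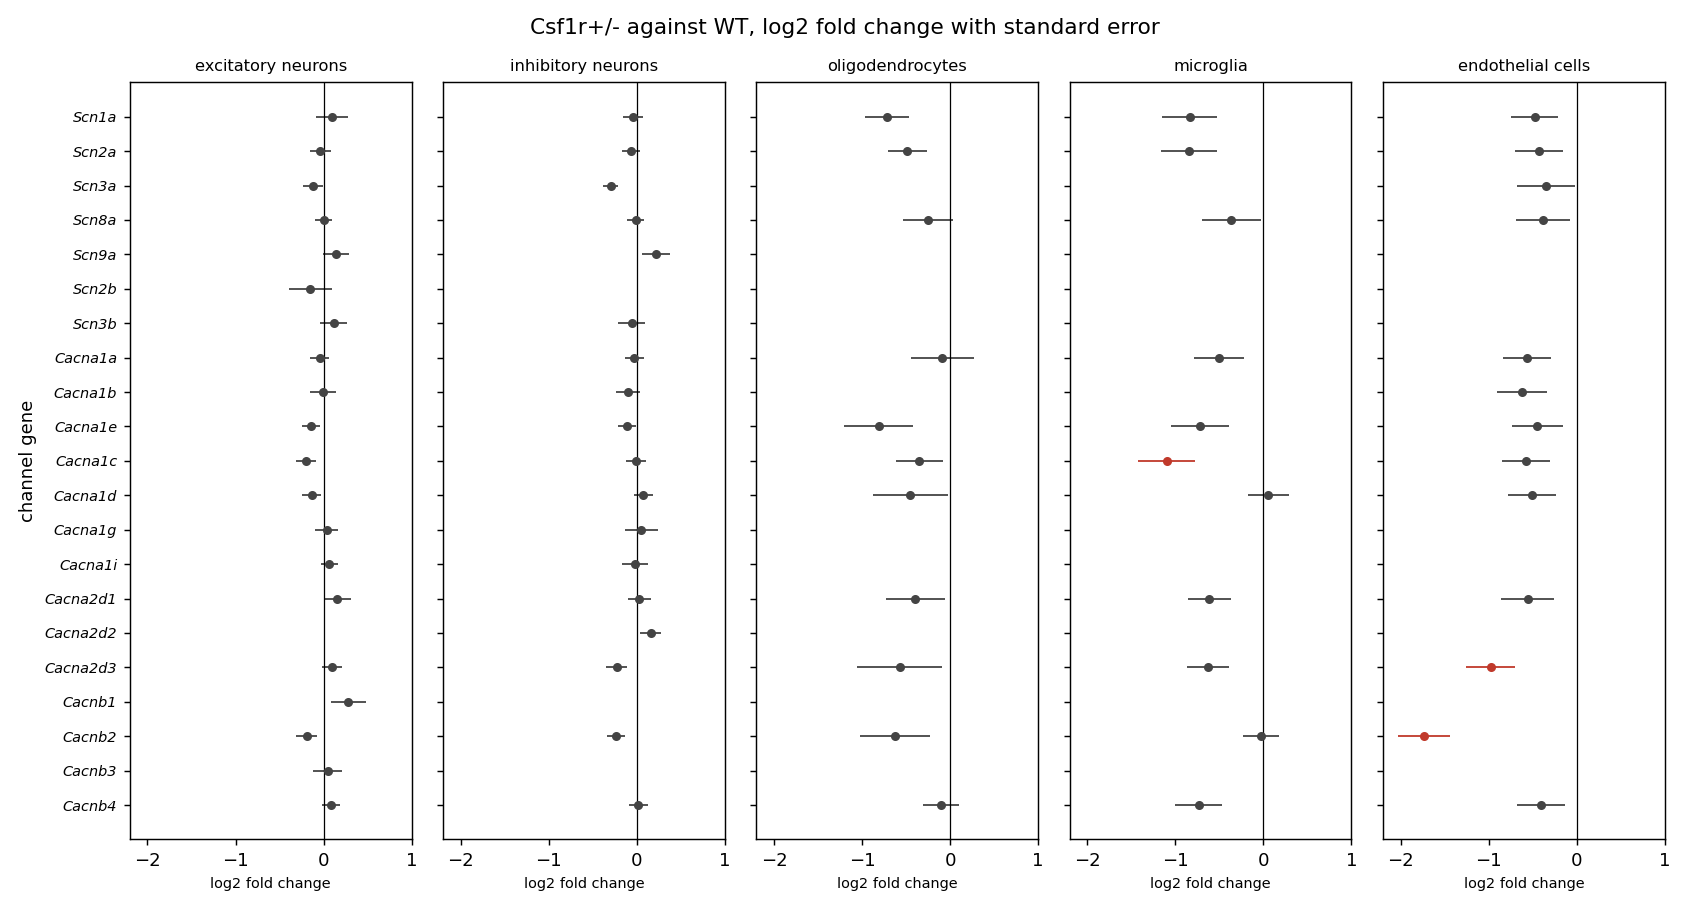
Log2 fold change of Csf1r+/- against WT with its standard error for channel genes tested in 5 classes, from edgeR fits on 2 libraries per genotype. Red points had an unadjusted p under 0.01: Cacna1c in microglia, and Cacnb2 and Cacna2d3 in endothelial cells. In excitatory and inhibitory neurons the points lie between -0.30 and 0.28.

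The genotype difference of each member was also compared between the 5 classes, in 121 tests over 10 pairs of classes. Of these, 6 had an unadjusted p under 0.01 in edgeR, against 2.55% of all genes over the same pairs, and 0 passed after adjustment, the smallest adjusted p being 0.14. The 6 are named after their values were seen. Cacnb2 was lower in endothelial cells relative to excitatory neurons by a log2 difference of -1.42 (edgeR adjusted p = 0.22), relative to inhibitory neurons by -1.38 (edgeR adjusted p = 0.28) and relative to microglia by -1.59 (edgeR adjusted p = 0.42). The other 3 were Cacna2d3 between excitatory neurons and endothelial cells (-0.97) and between excitatory and inhibitory neurons (-0.32), and Scn1a between excitatory neurons and oligodendrocytes (-0.83).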

How the data were processed

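Nuclei of 4 libraries were analysed from UMI counts that the authors deposited without normalization, per the labels from Chromium libraries processed with Cell Ranger on mm10. The limits on nuclei were 500 and 50000 UMIs, over 200 genes and less than 5% of UMIs from mitochondrial genes. Clusters (scanpy 1.11.5, leidenalg 0.10.2) were made from 3000 variable genes, 30 components and 20 neighbours, with 185 genes left out by name, among them all members and partners. The channel genes, gene lists and subtypes were chosen with earlier results of these data known. The clustering and the class rule were changed after the clusters were seen and before channel gene levels were computed. Resolution 2 replaced the planned 1, because microglia had merged with nuclei of high Scrublet doublet scores. Limits of 0.7 and 0.45 on glutamate and GABA transporter levels, relative to all nuclei, were added to the 3-fold ratio that divides excitatory from inhibitory neurons. The limits kept 3 clusters out of the inhibitory class, with 14.1% and 12.5% of WT and 11.2% and 10.6% of Csf1r+/- nuclei, and were kept in part because the class then had a size close to that in an earlier analysis of these data. Unnamed clusters held 6.57% and 11.0% of WT and 5.99% and 4.55% of Csf1r+/- nuclei.

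For each class, the counts of a library's nuclei were added up and fitted with edgeR 4.0.16 (TMM, quasi-likelihood, two-sided, Benjamini-Hochberg adjustment over all genes), which was tested on simulated data. The study used edgeR's likelihood-ratio test, which was an alternative here, as were DESeq2 1.42.0 and other settings. An exact permutation test of 2 against 2 libraries cannot go below p = 0.333. In the genotype comparison, members past p under 0.01 in a class were named, or else the 2 with the smallest p. Positions are from GENCODE M21, to which all 32 members matched by identifier, and RefSeq promoters were listed for 24. Some genes of these lists are counted in the totals but not reported here by name.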

Additional observations from a re-analysis of the deposited data

How the results depend on the processing

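The number of members past the study's threshold in inhibitory neurons was 1 with class library totals alone and with high doublet scores removed, against 0, and 0 to 1 with a library left out. In oligodendrocytes it was 5 with high doublet scores removed, 5 with no centring per library and 4 with a crossed replicate block, against 0, and 0 to 1 with a library left out. In microglia it was 0 by DESeq2, 2 with high doublet scores removed, 0 with no centring and 4 with the crossed block, against 1, and 0 to 5 with a library left out. In endothelial cells it was 1 with high doublet scores removed, against 2, and 1 to 5 with a library left out. The 5 subtype calls became 9 by the likelihood-ratio test, 8 with no detection filter, 9 with the crossed block and 3 to 9 with a library left out. Median log2 fold changes with a library left out ran from -0.016 to 0.043 in excitatory neurons, -0.060 to 0.015 in inhibitory neurons, -0.88 to -0.066 in oligodendrocytes, -0.85 to -0.39 in microglia and -0.78 to -0.31 in endothelial cells. The median in oligodendrocytes was -0.87 with high doublet scores removed and 0.051 after subtracting free RNA. In microglia it was -0.060 at resolution 1, -0.23 with no centring and -0.011 after subtracting free RNA. In endothelial cells it was -3.86 after subtracting free RNA, which left 8 to 12 of 13 members at 0 UMIs by library. Each median after subtraction is over the members that kept 10 or more counts, which can be fewer than in the main fit. At resolution 1, Rims1 (0.071), Rims2 (0.13), Fgf12 (0.10) and Unc80 (0.084) were positive in microglia. The causes of these changes were not tested. At resolution 1 the microglia cluster held 1146 nuclei, of which 30.8% had high doublet scores. The gene differences between replicates 1 and 2 in WT were correlated with those in Csf1r+/-. The values ran from -0.37 in oligodendrocytes to -0.0057 in inhibitory neurons, so same-numbered libraries did not deviate alike. The negative value in oligodendrocytes means that differently numbered libraries tended to deviate alike there, and its source was not tested. With the replicate block there were 7 subtype calls, and 1 call in microglia and 2 in endothelial cells. Resolution 1 was planned as the main clustering, and resolution 2, the transporter limits and the crossed block were chosen after seeing the data. A fit without a library leaves 1 genotype with 1 sample, which is assumed to vary like the other genotype. Of 368 single-gene alternatives, 301 kept their direction and side of the threshold, 56 lost the threshold, 7 gained it and 4 reversed. Of 224 alternatives for the ratio of inhibitory to excitatory neurons, 13 moved, 3 with high doublet scores removed and 10 without the transporter limits, where Scn7a (0.26) and Cacna1b (0.12), whose ranges overlapped, changed sign. Microglia and endothelial cells had 80 to 284 nuclei per library.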

Other observations

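Some clusters had no subtype name and are called by their leading genes, and they were picked here after their values were seen. Inhibitory neurons led by Fign and Six3, with 19 to 63 nuclei per library, held Scn3a at 477 to 628 CPM and Scn9a at 291 to 466 CPM. Scn7a was counted in 43.7% of nuclei of excitatory neurons led by Hgf and Barx2, at 91.2 and 74.8 CPM (WT) and 58.2 and 68.7 CPM (Csf1r+/-). Scn7a was itself among that cluster's leading genes but was not used to make it. Cacnb4 reached 1571 to 2451 CPM in excitatory neurons led by Cdhr1 and Reln, which had 14 to 52 nuclei per library.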
